A study of Mus musculus with 6 samples.

Results

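Extracellular matrix genes and the proteases that act on them were examined in mouse liver. Members were taken by gene name alone: collagen chains (Col), laminin chains (Lama, Lamb and Lamc), matrix metalloproteinases (Mmp), ADAMTS proteases, tissue inhibitors of metalloproteinases (Timp), fibulins (Fbln), fibrillins (Fbn) and names that begin with Lox, which take in the lysyl oxidases. Of 55401 gene models, 113 carried such a name, and the 89 with at least 1 count in any library are the members. The other 24 had 0 counts in all 6 libraries, among them Col2a1, Mmp13, Fbn2 and Loxhd1, which matches by name only. All 89 members are protein-coding, 49 reached a mean FPKM of 0.1 over the 6 libraries and were tested, and 40 lay below it.

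The study asked how 9-HODE and 13-HODE, hydroxy fatty acids derived from linoleic acid, affect the liver. Male C57BL/6 mice, 8 weeks old, received intraperitoneal injections daily for 9 days of either an equal mixture of both compounds (9/13-HODEs, 0.5 μg per g body weight) or the solvent of PEG400 and water (Ctrl). Poly(A) RNA of whole liver was sequenced from 3 mice per group, with 1 library per mouse. No gene was altered in either group. Total counts were 70300597 to 78615288 per library, and edgeR put the common biological coefficient of variation at 0.36. Hepatocyte marker genes (Alb, Ttr, Apoa1, Hnf4a and Cyp2e1) summed to an FPKM of 61329 to 66615 in Ctrl and 56599 to 67354 in 9/13-HODEs livers, as fits liver, and 0 of them had an unadjusted p under 0.05.

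The liver has little matrix for its size. Fibrillar collagens surround portal tracts and large vessels, while a loose layer with type IV and type XVIII collagen and laminins lies between hepatocytes and the sinusoids. Hepatic stellate cells and portal fibroblasts make most fibrillar collagen, which accumulates in fibrosis, whereas hepatocytes are a known source of collagen XVIII. Lysyl oxidases crosslink collagen and elastin, matrix metalloproteinases and ADAMTS proteases cut matrix proteins or their precursors, and TIMPs inhibit metalloproteinases. In whole liver RNA, fewer cells of a type and less RNA per cell cannot be told apart.

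No member differed between the groups after adjustment. By the quasi-likelihood test of edgeR, with Benjamini-Hochberg adjustment over all 14741 tested genes, 0 of the 49 tested members had an adjusted p under 0.05, beside 0.0204% of all genes (3 genes). The smallest adjusted p of a member was 0.649. By DESeq2 it was again 0 of 49, beside 0.597% of all genes, and the smallest adjusted p was 0.0851 (Lama5). At an unadjusted edgeR p under 0.05 there were 3 members (6.12%), all higher in 9/13-HODEs livers, against 7.69% of all genes in either direction, 4.08% higher and 3.61% lower. DESeq2 also gave 3 members, beside 7.84% of all genes. The share of members past this threshold was thus near that of all genes.

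Most members leaned slightly upward. The log2 fold change of 9/13-HODEs over Ctrl was positive in 37 of the 49 tested members (75.5%), compared with 50.1% of all genes. Its median was 0.19 in the members and 0.00 in all genes. Without scaling beyond library totals, 34 of 49 members (69.4%) and 40.2% of all genes were positive. Single fold changes ran from -1.47 (Mmp7) to 1.66 (Fbln7) with a median standard error of 0.251. Of the tested members, 4 reached the minimum through the mean of 1 group only, Fbln7, Adamts14 and Adamts5 through 9/13-HODEs and Mmp7 through Ctrl, so that their direction was favoured by the filter. Among the 45 at the minimum in both groups, 34 were positive and the median was 0.16. In the 13 members of mean FPKM 1 or more the median was 0.11, and in the other 36 it was 0.22. The 3 libraries of 9/13-HODEs livers held the highest scaled count for 12, 12 and 11 members (24.5%, 24.5% and 22.4%). Among all genes these shares were 16.7%, 15.2% and 18.6%. The Ctrl libraries held it for 7, 4 and 3 members (14.3%, 8.16% and 6.12%), beside 14.7%, 14.6% and 20.2% of all genes.

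**Figure D1:**
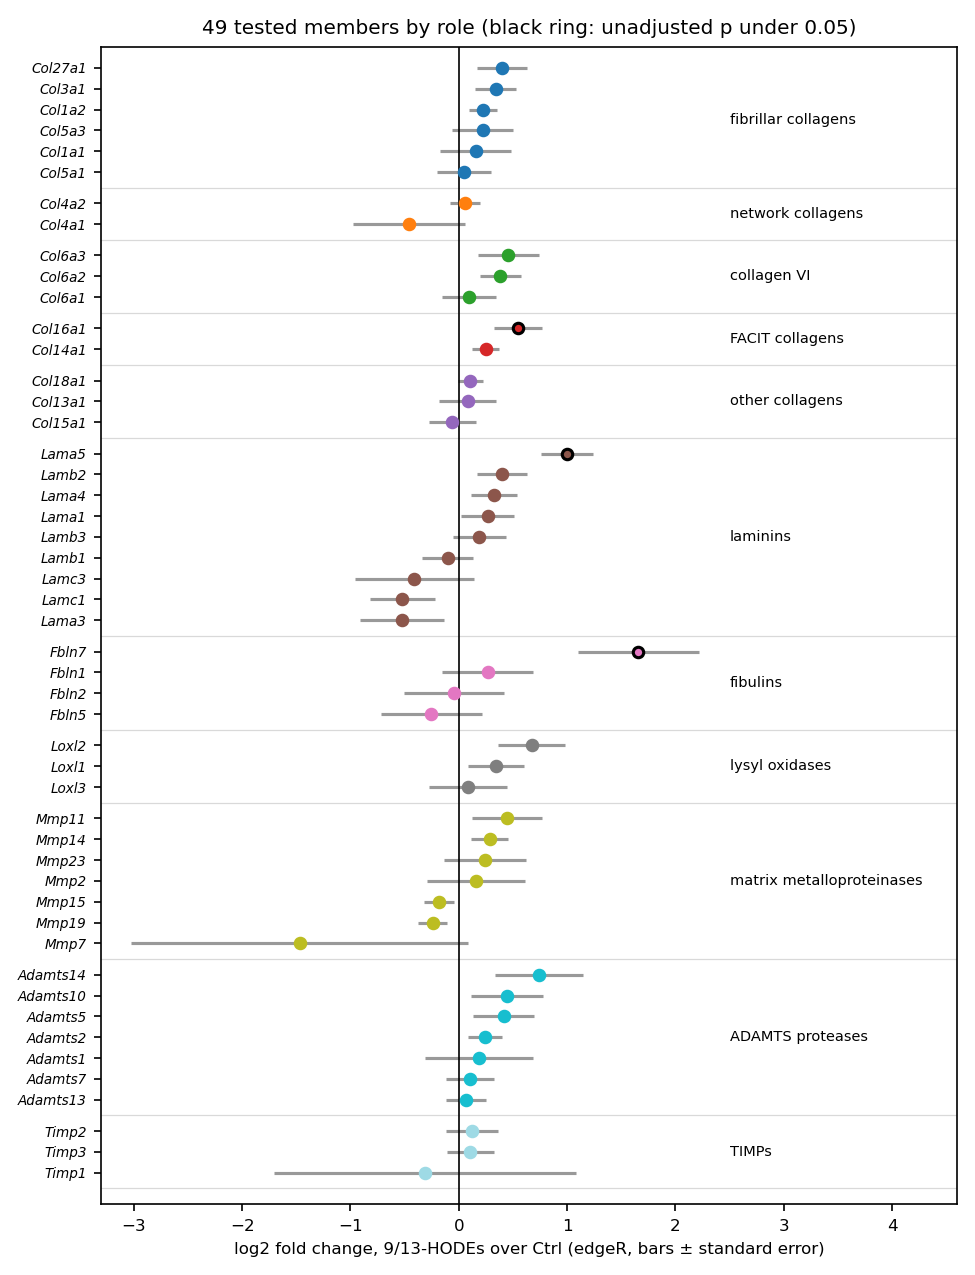
Log2 fold change of 9/13-HODEs over Ctrl (x axis, edgeR, bars are the standard error) for the 49 tested members, 1 row per gene, ordered by role and coloured by role. Most points lie between -0.5 and 0.75, and the 3 ringed genes (Lama5, Fbln7 and Col16a1) have an unadjusted p under 0.05.

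Lama5, Fbln7 and Col16a1 had the smallest unadjusted p-values. Lama5 encodes the α5 chain of laminins found in epithelial and vascular basement membranes, and lies at chr2:180176373-180225859 on the minus strand. Its FPKM (fragments per kilobase of transcript, scaled to library depth) was 0.117, 0.119 and 0.144 in Ctrl livers and 0.229, 0.321 and 0.187 in 9/13-HODEs livers. The groups did not overlap, and the means were 0.127 ± 0.0148 and 0.246 ± 0.0687 (SD, n = 3). The log2 fold change of Lama5 was 1.0 with a standard error of 0.24, an unadjusted p of 0.00473 and an adjusted p of 0.649 (edgeR). With any single library left out, the unadjusted p of Lama5 lay between 0.00458 and 0.0183, and by limma-trend on log2(FPKM + 0.1) it was 0.051.

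Fbln7 encodes fibulin-7, a secreted cell adhesion protein, and lies at chr2:128862981-128897034. It was counted 7, 12 and 23 times in Ctrl and 51, 29 and 49 times in 9/13-HODEs livers, so every treated liver was above every control, at few counts. Its mean FPKM was 0.0522 in Ctrl and 0.160 in 9/13-HODEs livers, so it passed the minimum of 0.1 only through the group where it was high, which favours its place among the 3 genes. Its log2 fold change was 1.66 with a standard error of 0.56, and its unadjusted p was 0.0225 (edgeR). This p rose above 0.05 when Ctrl mouse 1 (0.056), Ctrl mouse 2 (0.0601), 9/13-HODEs mouse 1 (0.069) or 9/13-HODEs mouse 3 (0.0603) was left out. Col16a1 encodes the chain of a collagen that attaches to the surface of fibrils, and lies at chr4:130047840-130099283. Its FPKM was 0.226, 0.304 and 0.315 in Ctrl and 0.382, 0.372 and 0.419 in 9/13-HODEs livers. The Col16a1 groups did not overlap, and the log2 fold change was 0.55 with a standard error of 0.22 and an unadjusted p of 0.0449 (edgeR). No single omission kept the Col16a1 p under 0.05: it was 0.121, 0.0526 and 0.0658 without Ctrl mouse 1, 2 or 3, and 0.0765, 0.056 and 0.123 without 9/13-HODEs mouse 1, 2 or 3.

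The 250 bases before the RefSeq start of these 3 genes are printed here because they are the members with the smallest p. The windows are from RefSeq on GRCm38.p6, written 5′ to 3′ along the gene, with GC boxes (GGGCGG) and CCAAT boxes (CCAAT) of either strand in capitals. Lama5 (chr2:180225860-180226109, minus strand) holds 4 GC boxes, Fbln7 (chr2:128863682-128863931, plus strand) 1 CCAAT box, and Col16a1 (chr4:130047590-130047839, plus strand) 1 of each. The start of Fbln7 in the authors' table lies upstream of this window, and 113 bases of the Col16a1 window overlap an exon of Gm12963.
Lama5: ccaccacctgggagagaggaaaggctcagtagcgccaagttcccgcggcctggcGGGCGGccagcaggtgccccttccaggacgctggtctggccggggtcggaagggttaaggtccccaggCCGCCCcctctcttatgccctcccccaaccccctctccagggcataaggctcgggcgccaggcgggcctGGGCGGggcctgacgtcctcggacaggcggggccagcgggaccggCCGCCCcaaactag
Fbln7: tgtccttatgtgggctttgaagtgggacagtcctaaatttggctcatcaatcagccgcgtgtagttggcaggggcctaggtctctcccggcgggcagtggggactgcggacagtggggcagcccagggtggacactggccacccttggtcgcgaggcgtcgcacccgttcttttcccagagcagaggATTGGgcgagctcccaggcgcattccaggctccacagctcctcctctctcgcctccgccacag
Col16a1: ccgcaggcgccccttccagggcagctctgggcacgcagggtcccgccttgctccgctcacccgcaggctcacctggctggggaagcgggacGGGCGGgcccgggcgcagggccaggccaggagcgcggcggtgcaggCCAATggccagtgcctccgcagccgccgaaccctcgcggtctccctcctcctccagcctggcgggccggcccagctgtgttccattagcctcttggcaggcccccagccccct
Of the tested members, 34 were found in the RefSeq table by symbol, with 41 windows. The GC box stood in 56.1% of the members' windows and in 32.7% of all 32851 windows, and the median GC content was 62% and 52.4%. The CCAAT box stood in 34.1% and 33.8%, the TATA box (TATAAA) in 9.76% and 12.4%, and the AP-1 site (TGANTCA) in 4.88% and 6.75%, both strands read. These are matches of letters, and binding was not measured.

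On depth-scaled counts, every 9/13-HODEs liver lay above every Ctrl liver in 8 of the 49 tested members (16.3%), and the reverse was seen in 0. Among all tested genes 7.98% were separated upward and 7.5% downward, 15.5% together. The 8 were Lama5, Fbln7, Col16a1, Col14a1, Col1a2, Adamts2, Mmp14 and Mmp11. Fbln7 passed the minimum only through the treated group, and 7 of the 8 are at the minimum in both. On the FPKM scale 5 remained separated upward, beside 5.28% of all genes, and 1, Mmp19, was separated downward, beside 9.82%.

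Among the members, levels were dominated by 1 gene. Col18a1, whose protein carries the endostatin domain, had an FPKM of 69.3, 68.3 and 84.5 in Ctrl and 80.2, 70.9 and 76.2 in 9/13-HODEs livers. It made up 57.4% of the summed FPKM of all members and 78.8% of that of the collagens. Its groups overlapped, and its log2 fold change was 0.11 with a standard error of 0.117 (unadjusted p 0.395, edgeR). Next came the proteases Mmp19 (mean FPKM 9.42) and Mmp15 (8.19), then Col14a1 (3.85), Timp2 (2.98), Col4a2 (2.16), Col3a1 (2.16), Col6a1 (2.09), Timp3 (1.97) and Col1a1 (1.97). The ranges over the 6 livers overlapped for Mmp19 and Mmp15, for Col14a1 and Timp2, and for each pair of neighbours from Col4a2 down, while the lowest Timp2 value (2.43) lay just above the highest of Col4a2 (2.41). The members without Col18a1 summed to 54.7 to 57.6 in Ctrl and 51.9 to 57.6 in 9/13-HODEs livers.

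**Figure D2:**
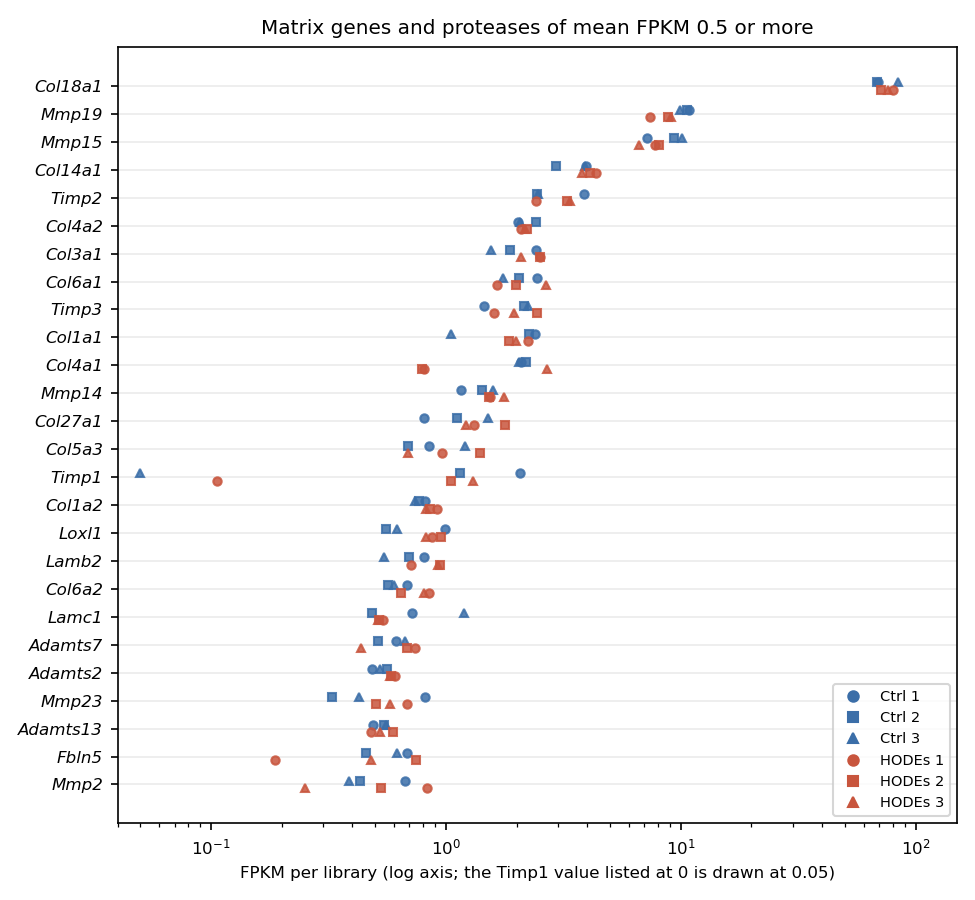
FPKM of the members with a mean of 0.5 or more (x axis, log scale), with Ctrl livers in blue and 9/13-HODEs livers in red and 1 marker shape per mouse number, which does not pair the mice. Col18a1 stands alone at 68.3 to 84.5, Mmp19 and Mmp15 follow, and blue and red points intermingle for most genes, while Timp1 and Col4a1 spread widely within a group.

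The 6 tested fibrillar collagens, which form the tensile fibres of interstitial matrix, all had a positive log2 fold change, between 0.05 and 0.40, and none had an unadjusted p under 0.05. Without scaling beyond library totals, 5 of the 6 were positive. Col3a1, the chain of type III collagen, had an FPKM of 2.42, 1.88 and 1.56 in Ctrl and 2.51, 2.53 and 2.09 in 9/13-HODEs livers. The 2 groups overlapped through Ctrl mouse 1, and the log2 fold change was 0.34 with a standard error of 0.185 (unadjusted p 0.112, edgeR). With single libraries left out, the log2 fold change of Col3a1 ranged from 0.18 (without Ctrl mouse 3, unadjusted p 0.244) to 0.53 (without Ctrl mouse 1, unadjusted p 0.0206, adjusted p 0.767, edgeR). Col1a1, the major chain of type I collagen, had 2.38, 2.25 and 1.05 in Ctrl and 2.25, 1.86 and 1.99 in 9/13-HODEs livers, with the low value in Ctrl mouse 3. Its log2 fold change was 0.15, and it was -0.15 without that mouse. Col1a2, the partner chain of type I collagen, had 0.814, 0.769 and 0.737 against 0.919, 0.852 and 0.824, a narrow separation (log2 fold change 0.22, standard error 0.127, unadjusted p 0.122, edgeR). Summed over the 10 fibrillar members, the FPKM was 6.80 to 7.81 in Ctrl and 7.58 to 8.99 in 9/13-HODEs livers. These ranges overlapped, and after division by the TMM factor of each library they were 6.33 to 7.67 and 8.17 to 8.84, without overlap.

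Network collagens build the sheet of basement membranes. Col4a1 and Col4a2 encode the partner chains of type IV collagen, and their gene models at chr8:11198423-11312826 and chr8:11312805-11449287 lie head to head and overlap by 22 bases. Col4a2 had an FPKM of 2.02, 2.41 and 2.07 in Ctrl and 2.09, 2.21 and 2.18 in 9/13-HODEs livers, and did not separate the groups (log2 fold change 0.06, unadjusted p 0.686, edgeR). Col4a1 had 2.10, 2.20 and 2.05 in Ctrl, and 0.811, 0.788 and 2.69 in 9/13-HODEs livers. It was thus low in 9/13-HODEs mice 1 and 2 and highest of all in mouse 3. Its log2 fold change was -0.46 with a standard error of 0.517 (unadjusted p 0.402, edgeR). Without 9/13-HODEs mouse 3 it was -1.38, with an unadjusted p of 0.000129 and an adjusted p of 0.143, and without mouse 1 or 2 it was -0.17 or -0.15. The ratio of Col4a1 to Col4a2 was 1.04, 0.913 and 0.990 in Ctrl and 0.388, 0.356 and 1.24 in 9/13-HODEs livers. This pattern was picked out after its values were seen.

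**Figure D3:**
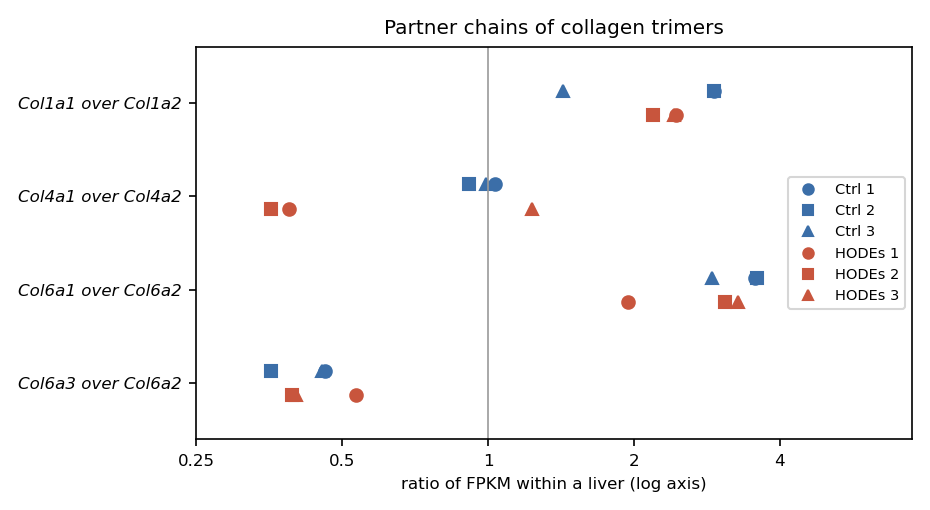
Ratio of FPKM within each liver (x axis, log scale) for partner chains of collagen trimers, with Ctrl livers in blue and 9/13-HODEs livers in red. The Col4a1 to Col4a2 ratio is near 1 in all Ctrl livers and in 9/13-HODEs mouse 3, and 0.388 and 0.356 in the other two treated mice, while Ctrl mouse 3 stands apart in Col1a1 over Col1a2 at 1.43.

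The same kind of ratio set apart a different liver for type I collagen. Col1a1 over Col1a2 was 2.93, 2.93 and 1.43 in Ctrl and 2.44, 2.19 and 2.42 in 9/13-HODEs livers. The low ratio lies in Ctrl mouse 3 and comes from its Col1a1 value, since its Col1a2 count of 756 was close to the 749 of Ctrl mouse 2. In collagen VI, which forms microfibrils near cells, Col6a1 over Col6a2 ranged from 2.90 to 3.59 in Ctrl and was 1.95, 3.08 and 3.28 in 9/13-HODEs livers. Col6a1 itself had an FPKM of 2.44, 2.04 and 1.74 against 1.65, 1.99 and 2.66, with overlapping groups (log2 fold change 0.09, standard error 0.25). The 3 tested collagen VI genes were all positive, from 0.09 to 0.46, with the smallest unadjusted p in Col6a2 (0.0824, edgeR).

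The FACIT collagens decorate fibrils. Col14a1, which accounts for 88.8% of their summed FPKM, had 3.96, 2.95 and 3.91 in Ctrl and 4.37, 4.10 and 3.79 in 9/13-HODEs livers. The FPKM groups overlapped, whereas the depth-scaled counts did not, and the log2 fold change was 0.25 with a standard error of 0.125 (unadjusted p 0.09, edgeR). Among the other collagens tested, Col13a1 and Col15a1 had log2 fold changes of 0.08 and -0.06. Taken over all 16 tested collagens, 14 were positive and 2 negative, and 1 (Col16a1) had an unadjusted p under 0.05.

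Laminins are trimers of an α, a β and a γ chain. Of the 9 tested laminin genes 5 were positive and 4 negative, from -0.52 (Lama3) to 1.0 (Lama5). The most abundant, Lamb2, had an FPKM of 0.804, 0.696 and 0.546 in Ctrl and 0.712, 0.948 and 0.929 in 9/13-HODEs livers, with overlap (log2 fold change 0.40, standard error 0.232, unadjusted p 0.131, edgeR). Lamc1, whose γ1 chain is shared by most laminins, had 0.716, 0.486 and 1.20 in Ctrl and 0.538, 0.519 and 0.516 in 9/13-HODEs livers. The treated livers were alike and the Ctrl livers were spread, with mouse 3 highest, and the log2 fold change of -0.52 had a standard error of 0.301 (unadjusted p 0.129, edgeR). Without Ctrl mouse 3 it was -0.15, and without Ctrl mouse 2 it was -0.76 with an unadjusted p of 0.0226 and an adjusted p of 0.642 (edgeR). Lama5 was therefore the only laminin gene with separated groups. Lamb3 overlaps the gene model Gm37691 on the same strand over 2573 bases, and Hsd11b1 and G0s2 on the other strand over 21928 and 1057 bases, with 20676 to 53638 and 8955 to 36435 counts. Whether counting used strand is not stated, so the count of Lamb3 is uncertain.

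**Figure D4:**
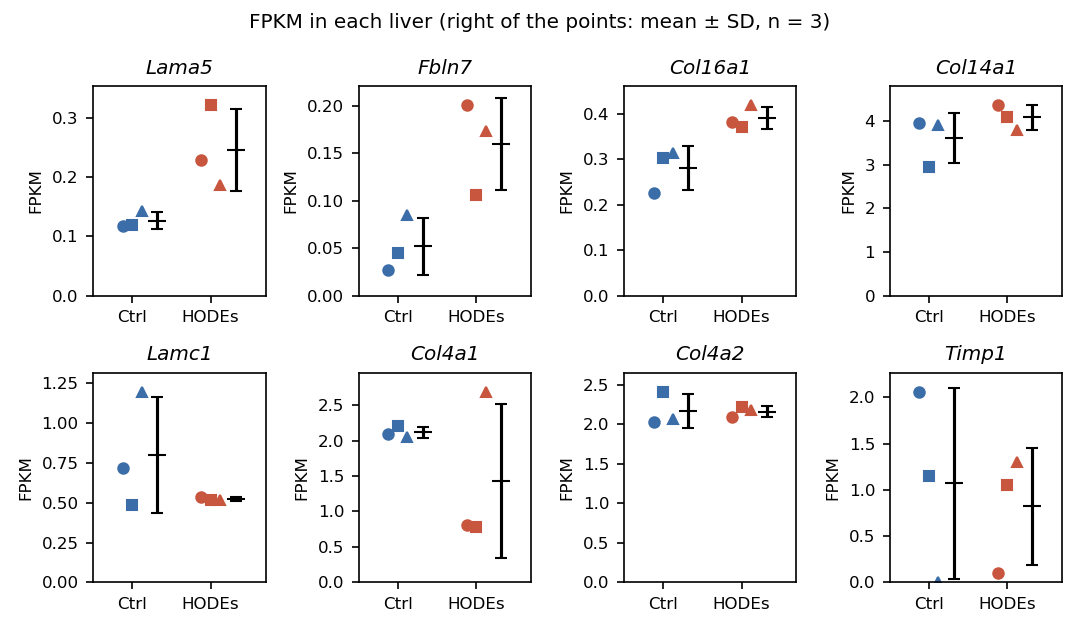
FPKM of 8 members in each liver (y axis, linear from 0), with 1 point per mouse and, to the right of each group, the mean and SD of n = 3. Lama5, Fbln7 and Col16a1 are higher in each 9/13-HODEs liver, Col14a1 and Col4a2 overlap, and Lamc1, Col4a1 and Timp1 each have a wide spread within at least 1 group.

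Fibulins bind elastic fibres and basement membranes. Besides Fbln7, the 3 others tested ran from -0.25 to 0.27. Fbln5, needed for elastic fibre assembly and the most abundant, had an FPKM of 0.686, 0.459 and 0.617 in Ctrl and 0.187, 0.749 and 0.478 in 9/13-HODEs livers, with the lowest value in treated mouse 1. Its log2 fold change was -0.25 with a standard error of 0.463, and 0.13 without that mouse. The fibrillin gene Fbn1, which encodes the scaffold of microfibrils, lay below the minimum, with 88, 80 and 106 counts in Ctrl and 41, 115 and 109 counts in 9/13-HODEs livers.

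The lysyl oxidase group summed to an FPKM of 1.40, 1.18 and 1.13 in Ctrl and 1.73, 1.54 and 1.40 in 9/13-HODEs livers. The 3 treated sums were above the 3 control sums, by a very small margin in FPKM, and after division by the TMM factor the ranges were 1.05 to 1.37 and 1.51 to 1.77. The FPKM separation rested on genes below the minimum. Lox gave 0.0451 of the sum of 1.4018 in 9/13-HODEs mouse 3, beside a sum of 1.3986 in Ctrl mouse 1. Loxl1, which acts on elastic fibres, had 0.989, 0.559 and 0.621 against 0.870, 0.953 and 0.820, and overlapped because Ctrl mouse 1 was highest (log2 fold change 0.34, standard error 0.263, unadjusted p 0.235, edgeR). For Loxl1 it was 0.64 without Ctrl mouse 1 (unadjusted p 0.0248, adjusted p 0.767, edgeR), and 0.21 and 0.22 without Ctrl mouse 2 or 3 (unadjusted p 0.493 and 0.471). Loxl2 had 0.147, 0.255 and 0.218 against 0.367, 0.254 and 0.324, with the largest log2 fold change of the group (0.67, standard error 0.308, unadjusted p 0.0676, edgeR). Its gene model overlaps Gm27177 on the other strand over 35685 bases, with 128 to 347 counts, so the count of Loxl2 is uncertain. The founding member, Lox, had 0 counts in all Ctrl livers and 0, 8 and 19 in the 9/13-HODEs livers, and was not tested.

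Matrix metalloproteinases were the one role group in which every treated sum lay below every control sum. Their summed FPKM was 20.9, 22.7 and 23.4 in Ctrl and 18.6, 20.5 and 18.7 in 9/13-HODEs livers, a mean of 22.3 ± 1.25 and 19.2 ± 1.07 (SD, n = 3). After division by the TMM factor the Ctrl sums, 20.6 to 22.9, still lay above the treated sums, 18.9 to 20.2. The difference sits in the 2 most abundant genes. Mmp19, a secreted protease with basement membrane substrates, had an FPKM of 10.8, 10.6 and 9.89 in Ctrl and 7.37, 8.84 and 9.06 in 9/13-HODEs livers. The FPKM groups of Mmp19 did not overlap, whereas the depth-scaled counts did. Its log2 fold change was -0.24 with a standard error of 0.133 (unadjusted p 0.116, edgeR). For Mmp19 the unadjusted p was 0.033 without scaling beyond library totals, 0.0367 by limma-trend on log2(FPKM + 0.1) and 0.0393 (log2 fold change -0.34) without 9/13-HODEs mouse 3, each with an adjusted p above 0.6. It was 0.184 by DESeq2, and 0.319 (log2 fold change -0.14) without 9/13-HODEs mouse 1. Mmp15, a membrane-anchored protease, had 7.17, 9.33 and 10.2 against 7.78, 8.06 and 6.66, with overlap through Ctrl mouse 1. The log2 fold change of Mmp15 was -0.18 (standard error 0.139, unadjusted p 0.236, edgeR), -0.31 without Ctrl mouse 1 (unadjusted p 0.0286, adjusted p 0.767), and -0.11 without Ctrl mouse 2 or 3 (unadjusted p 0.507 and 0.502).

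Of the other 5 tested metalloproteinases, all lower in level, 4 had a positive log2 fold change. Mmp14, the membrane protease that activates the precursor of MMP2, had an FPKM of 1.16, 1.43 and 1.59 in Ctrl and 1.55, 1.52 and 1.77 in 9/13-HODEs livers (log2 fold change 0.29, standard error 0.172, unadjusted p 0.142, edgeR). Mmp11 and Mmp23 had log2 fold changes of 0.45 and 0.24. Mmp11, with 30 to 61 counts, overlaps Chchd10 on the other strand over 3367 bases, which had 53379 to 83214 counts, so its count is uncertain too. Mmp2, the gelatinase made by stellate cells, had 0.672, 0.429 and 0.389 against 0.833, 0.531 and 0.252, so that the treated livers held both the highest and the lowest value. Mmp7 (matrilysin) was counted 0, 18 and 47 times in Ctrl and 0, 15 and 8 times in 9/13-HODEs livers, and its log2 fold change of -1.47 had the largest standard error of the tested members, 1.55.

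All 7 tested ADAMTS genes had a positive log2 fold change, from 0.07 (Adamts13) to 0.74 (Adamts14), and 0 had an unadjusted p under 0.05. Without scaling beyond library totals, 6 of the 7 were positive. Adamts5 (mean FPKM 0.0945 and 0.122) and Adamts14 (0.0820 and 0.134) reached the minimum only through the treated group, which favours a positive value. Adamts2 and Adamts14 encode proteinases that trim the amino end of procollagens. Adamts2 had an FPKM of 0.484, 0.561 and 0.524 in Ctrl and 0.608, 0.586 and 0.581 in 9/13-HODEs livers, separated but close (log2 fold change 0.24, standard error 0.157, unadjusted p 0.168, edgeR). Adamts14 was counted 29, 49 and 26 times against 58, 68 and 49 times (unadjusted p 0.113, edgeR). Adamts7, the most abundant of the group, had an FPKM of 0.612, 0.513 and 0.673 against 0.736, 0.680 and 0.435, with overlap. Its gene model overlaps Tbc1d2b on the other strand over 6045 bases, with 745 to 1473 counts, so the count of Adamts7 is uncertain. Adamts13, whose product cleaves von Willebrand factor, differed by less than the spread between mice, at 0.531 ± 0.0342 and 0.532 ± 0.0594 (SD, n = 3).

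The inhibitors did not separate the groups. Timp2 had an FPKM of 3.86, 2.44 and 2.47 in Ctrl and 2.43, 3.29 and 3.38 in 9/13-HODEs livers, and Timp3, which is bound to the matrix, 1.45, 2.14 and 2.24 against 1.61, 2.45 and 1.95. Their log2 fold changes were 0.12 (standard error 0.244) and 0.11 (standard error 0.217). The gene model of Timp3 overlaps Syn3 on the other strand over 49135 bases. Syn3 had 882 counts in Ctrl mouse 1 and 0 to 49 in the other livers, so the count of Timp3 is uncertain. Timp1, the inducible inhibitor, was counted 149, 80 and 0 times in Ctrl and 8, 79 and 102 times in 9/13-HODEs livers. The extremes of Timp1 thus lay within each group, and its log2 fold change of -0.31 had a standard error of 1.4. The sum of the mesothelial markers was likewise highest in Ctrl mouse 1 and lowest in Ctrl mouse 3 and 9/13-HODEs mouse 1, with an FPKM of Upk3b of 3.33, 0.709 and 0.220 in Ctrl and 0.411, 0.929 and 1.92 in 9/13-HODEs livers, and the part of mesothelium in the Timp1 values was not tested. Ctrl mouse 3, with 0 counts of Timp1, was also the lowest in Col1a1 and the highest in Lamc1, a set noticed after the values were seen.

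The 40 members below the minimum are described by counts, with no test. Of these, 23 had a higher summed count in the 9/13-HODEs livers, 16 in the Ctrl livers and 1 was equal. Counts were seen in all 6 libraries for 14, and 13 never exceeded 12 counts in a library. In 8 members counts occurred only in 9/13-HODEs livers (Mmp8, Mmp12, Mmp28, Lox, Adamts6, Adamts16, Col22a1 and Col6a5), and in 2 only in Ctrl livers (Col11a1 and Col4a6). That is 20% and 5% of the 40, beside 21.8% and 19.6% of the 7740 gene models with counts below the minimum. Adamts6, an ADAMTS protease, had 0, 0 and 0 counts in Ctrl and 34, 31 and 12 in 9/13-HODEs livers. Col4a6, a minor chain of type IV collagen, had 8, 13 and 7 in Ctrl and 0, 0 and 0 in 9/13-HODEs livers. Col7a1 (anchoring fibrils) and Col24a1 were also higher in every treated liver, at 4, 1 and 4 against 5, 30 and 12 and at 4, 4 and 0 against 9, 16 and 17 counts. Raw counts were thus separated upward in 3 of the 40 members and downward in 1, beside 2.39% and 1.87% of all gene models below the minimum. Low counts in this table may carry more noise than their number says: of the 18997 values from 1 to 12, 45.5% equal 4, 8 or 12, where 25% of those numbers do. A count of 4 or 8 may therefore not stand for that many independent fragments, and these differences remain descriptions.

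Genes that surround the members in the pathway were taken from 5 lists. Of the 90 tested genes 0 had an adjusted p under 0.05 by edgeR, and 10 (11.1%) had an unadjusted p under 0.05, all higher in 9/13-HODEs livers, beside 4.08% of all genes that were higher at this threshold and 7.69% in either direction. Without scaling beyond library totals, or by limma-trend with 0.1 or with 1 added to FPKM, the count was 4, and the share of all genes in those fits is not given here. Their median log2 fold change was 0.09. Among 24 matrix glycoproteins and proteoglycans, Sparc, a collagen-binding glycoprotein, had an FPKM of 12.1, 10.7 and 10.4 in Ctrl and 13.2, 13.3 and 12.8 in 9/13-HODEs livers (log2 fold change 0.31, unadjusted p 0.0213). Tnxb, Emilin1, Hspg2 and Igfbp7 were the other 4 in that list, with log2 fold changes of 0.59, 0.40, 0.50 and 0.23. Vtn, the plasma protein vitronectin and the most abundant of the list, had a log2 fold change of 0.03.

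Among 14 genes for collagen folding and modification, 3 had an unadjusted p under 0.05. Serpinh1, the collagen chaperone HSP47, had an FPKM of 6.30, 6.18 and 4.90 in Ctrl and 8.27, 7.07 and 7.17 in 9/13-HODEs livers, without overlap (log2 fold change 0.43, standard error 0.162, unadjusted p 0.033, adjusted p 0.649, edgeR). P3h3 and Crtap, which belong to prolyl 3-hydroxylation of collagen, had log2 fold changes of 0.54 and 0.39. P4hb, the β subunit of prolyl 4-hydroxylase and a general protein disulfide isomerase, had -0.02. The 18 genes of the TGF-β axis had 0 at this threshold, and its most abundant gene, Tgfbi, had 0.02. Among 17 other matrix proteases and inhibitors only Plau, the urokinase gene, passed it (log2 fold change 1.06, unadjusted p 0.0432), with overlapping groups, and Plg, its substrate plasminogen, had -0.06. Among 17 matrix receptors only Mrc2, a collagen uptake receptor, passed it (0.93, unadjusted p 0.0436), and Sdc4, the most abundant, had 0.06. The mean FPKM of Mrc2 was 0.0838 in Ctrl and 0.153 in 9/13-HODEs livers. It thus reached the minimum of 0.1 only through the treated group, which favours its place among the 10. The count of 10 fell to between 2 and 7 when 1 library was left out: it was 2 without 9/13-HODEs mouse 1, 5 without Ctrl mouse 2 and 6 without Ctrl mouse 3 or 9/13-HODEs mouse 2. The share of all genes past the threshold in these fits is not given here, so the fall cannot be called particular to these lists. Adipocyte markers were high in 9/13-HODEs mouse 1, with an FPKM of 0.581 for Adipoq and 0.103 for Plin1, both 0 in the other 5 livers. Their part in the values of the matrix lists was not tested.

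**Figure D5:**
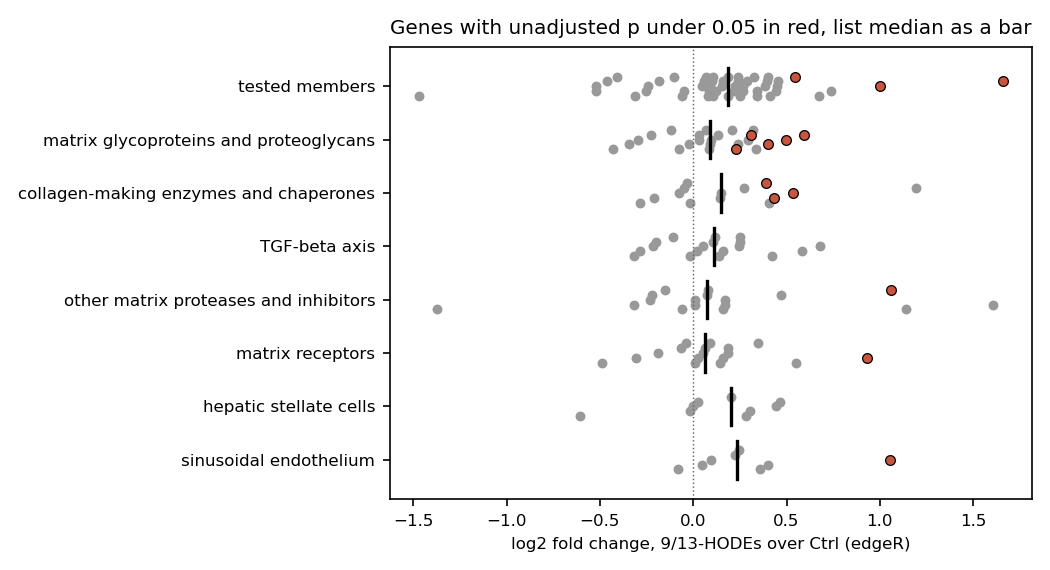
Log2 fold change of 9/13-HODEs over Ctrl (x axis, edgeR) for the tested members and for genes of 5 other matrix lists and 2 cell marker lists, 1 point per gene with the list median as a bar. Points with an unadjusted p under 0.05, in red, are all to the right of 0, and every list median lies between 0 and 0.25.

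Markers of the cell types that make matrix were read beside these values. The 9 stellate cell markers, all tested and none at 0, summed to an FPKM of 28.2 to 32.6 in Ctrl and 29.0 to 36.0 in 9/13-HODEs livers, with 6 positive and 3 negative, a median log2 fold change of 0.20 and 0 with an unadjusted p under 0.05. Colec11 (mean FPKM 19.0, log2 fold change 0.03) made up most of the stellate cell sum. Within that list Hand2 was higher in each treated liver on depth-scaled counts (log2 fold change 0.47, unadjusted p 0.0516, edgeR). Its FPKM overlapped, at 2.96 to 4.39 in Ctrl and 4.17 to 5.29 in 9/13-HODEs livers. Ngfr was lower in each treated liver on both scales (-0.61, unadjusted p 0.058, edgeR). Portal fibroblast markers (4 of 6 tested) summed to 2.40 to 2.85 and 2.72 to 3.89, with a median of 0.45. The 8 sinusoidal endothelial markers summed to 37.9 to 46.5 and 37.8 to 53.9, with 7 positive, a median of 0.23 and 1, Lyve1, with an unadjusted p under 0.05 (0.0145). These medians have the same sign as that of the members, as do those of Kupffer cells (0.16), cholangiocytes (0.24) and hepatocytes (0.05), whereas those of smooth muscle and activated stellate cells (-0.0079, 1 of 3 positive) and mesothelium (-0.35, 0 of 3 positive) do not. The part of cell composition in the members' values was not tested.

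The other marker lists gave summed FPKM of 3.30 to 5.59 in Ctrl and 3.20 to 4.66 in 9/13-HODEs livers for smooth muscle and activated stellate cells, 27.2 to 36.6 and 28.2 to 39.6 for Kupffer cells, and 12.8 to 19.3 and 13.4 to 17.2 for cholangiocytes. For mesothelium they were 0.765 to 7.78 and 1.23 to 4.58, for neutrophils 0.919 to 3.57 and 2.95 to 11.9, and for plasma cells 0.0764 to 0.415 and 0.0926 to 0.760. No gene of these lists had an unadjusted p under 0.05. Spp1 (mean FPKM 13.1, log2 fold change 0.04) made up most of the cholangiocyte sum. The 3 tested neutrophil markers were all positive, with a median log2 fold change of 1.63. The 2 tested plasma cell markers went opposite ways, Jchain at -0.10 and Mzb1 at 3.01 (standard error 1.83), with a median of 1.46. Mzb1 (mean FPKM 0.0382 in Ctrl and 0.312 in 9/13-HODEs livers) passed the minimum only through the treated group, which favours its value and that median. Adipocyte markers summed to at most 0.129 in Ctrl and to 1.32, 0.0546 and 0.0687 in 9/13-HODEs livers, so that the signal lay mostly in mouse 1. Only Retn of that list was tested (unadjusted p 0.00964), at 0 in all Ctrl livers and 0.492, 0.0546 and 0.0687 in 9/13-HODEs livers, and it passed the minimum only through the treated group.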

How the data were processed

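Liver RNA of 3 Ctrl and 3 9/13-HODEs mice was analysed. The deposited table gives raw counts, whole numbers for each gene model and library. Beside each count the authors give an FPKM value, scaled by transcript length and library depth, with 0.0001 or 1e-06 listed where there was no signal. Tools listed in the submitters' processing notes are HISAT2 2.0.4, cutadapt 1.9 and StringTie 1.3.4d, besides UMI-tools, edgeR and DESeq2, in no stated order. Whether counting used strand or removed duplicate molecules is not given in the sources used here. The genome build is not named, but the starts of all 89 members equal GENCODE M21 (GRCm38), as do 80 ends. Overlap with another gene of mean count 10 or more was found for 13 members, on the same strand for 2 (Lamb3 and Col20a1). The 10 tested ones are Adamts7, Col4a1, Col4a2, Lamb3, Loxl2, Loxl3, Mmp11, Mmp19, Timp1 and Timp3, with overlaps of 22 to 49135 bases. Their counts may hold reads of the other gene. Columns of GO and KEGG terms were not used.

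The 14741 genes whose FPKM averaged 0.1 or more were compared with edgeR 4.0.16 in R 4.3.3 (TMM scaling, quasi-likelihood test, Benjamini-Hochberg adjustment, threshold 0.05). DESeq2 1.42.0 and limma 3.58.1 were alternatives. The main edgeR fit, the DESeq2 fit and limma-trend with 0.1 added were run on simulated data, and the other alternatives were not. Group separation was read on counts scaled by TMM. The members, the role groups, the 5 matrix lists and the 11 marker lists were chosen with earlier results of these data known. Genes named are the members with an unadjusted p under 0.05, the 10 of highest mean FPKM, the most abundant of each role group, and, in each matrix list, the most abundant gene and up to 3 of smallest p under 0.05. Every other gene given with values was chosen after its values were seen, among them Col4a1, Timp1, Lamc1, Col1a2, Loxl2, Mmp2, Mmp7, Mmp14, Adamts2, Adamts13, Adamts14, Adamts6 and Col4a6. Of the alternatives, 14 were planned and 1, dividing the counts by 4, was added after the excess of such counts was seen. Replicates with the same number did not deviate together and were not paired.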

Additional observations from a re-analysis of the deposited data

How the results depend on the processing

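The number of members with an adjusted p under 0.05 was 0 under every alternative run. The number with an unadjusted p under 0.05 and higher values in 9/13-HODEs livers (3) was 6 with no filter on low values, which added Adamts6, Mmp28 and Col20a1, 0 at a mean FPKM of at least 1, where Lama5, Fbln7 and Col16a1 are no longer tested, and 1 (Fbln7) by limma-trend on log2(FPKM + 0.1) or on log2(FPKM + 1). With 1 library left out it was 1 to 4. The number with lower values (0) was 1 with no filter (Col4a6), 1 without scaling beyond library totals and 1 with either limma-trend (Mmp19 each time), and 0 to 2 with 1 library left out. The median log2 fold change of the members (0.19) was 0.11 at a mean FPKM of at least 1, 0.10 without scaling, 0.10 and 0.038 by limma-trend with 0.1 and 1 added, and 0.15 to 0.23 with 1 library left out. The median of all genes was -0.07 without scaling, and -0.059 and -0.030 by limma-trend with 0.1 and 1 added. Adding a number to FPKM also shrinks the changes of low genes, and its part in these medians was not tested. Groups were separated in 8 members, and in 12 to 15 with 1 library left out, since fewer libraries have to be separated. In the 5 other matrix lists the count of 10 was 4 without scaling, 4 and 4 by limma-trend, and 2 to 7 with 1 library left out. For the alternatives, the shares of all genes with an unadjusted p under 0.05 are not given beside the counts of members or of these lists.

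The deviations of libraries with the same replicate number correlated at 0.0165, -0.0156 and -0.0319, so nothing shows that the numbers pair the mice. The replicate block gave 2 members with an unadjusted p under 0.05 and 6 genes of the other lists, and turned Timp1 to 0.044. Counts divided by 4, chosen after seeing the data, left the same 3 members with an unadjusted p under 0.05.

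Of 33 genes followed under 15 alternatives, 446 of 482 values kept their direction and 36 in 13 genes did not, and no adjusted call changed. With 1 library left out, log2 fold changes ran from -0.011 to 0.38 (Timp2), -0.0034 to 0.18 (Col4a2), -0.17 to 0.25 (Col6a1), -0.064 to 0.24 (Timp3), -0.15 to 0.35 (Col1a1), -0.040 to 0.27 (Adamts7), -0.69 to 0.13 (Fbln5), -0.90 to 0.56 (Timp1), -0.086 to 0.16 (Vtn), -0.092 to 0.066 (P4hb), -0.043 to 0.086 (Tgfbi), -0.15 to 0.024 (Plg) and -0.016 to 0.16 (Sdc4). Without scaling, and by limma-trend with 0.1 and with 1 added, the values were -0.015, -0.0017 and -0.00195 for Col4a2, -0.048, -0.0350 and -0.0350 for Vtn, -0.053, -0.0396 and -0.0356 for Tgfbi, and -0.0139, -0.0093 and -0.0092 for Sdc4. Timp1 was 0.10 by limma-trend with 0.1 added. The causes were not tested.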
